A study of Mus musculus with 11 samples.

Results

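The genes described here belong to families that mainly encode the core of the splicing machinery and the proteins that coat new transcripts in the nucleus. They were chosen by name alone: Srsf genes with a number, Snrp genes other than Snrpn, the Sf3a and Sf3b subunits, and the numbered Lsm and Prpf genes, together with every gene named Hnrnp. A gene entered through a probe set to which the platform annotation gives that 1 symbol. Where it had several, the one with the highest mean over the 11 arrays was kept. This gave 71 of 19938 genes measured under a single symbol: 17 Hnrnp, 13 Lsm, 12 Prpf, 10 Snrp, 10 Srsf, and 9 Sf3a or Sf3b genes. Some of these, such as Lsm1, Lsm10 and Lsm14b, act outside the spliceosome, and "splicing genes" is used below as a name for all 71. All 71 were read above the lower limit of the table on every array, so each member gave a value in each sample. Hnrnpa1 and Srsf7 were not analysed here.

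The samples come from the thymus of FVB mice. Normal thymocytes (n = 3) had the genotype EμSR-tTA;Teto-Cre;Rosa26LOXPEGFP;Dnmt3b+/+ and were taken at 24 days. Wild-type lymphomas (n = 3) were EμSR-tTA;Teto-MYC;Rosa26LOXPEGFP;Dnmt3bF/F, which leaves the floxed gene in place because no Cre is present. The remaining mice were Dnmt3b-/- and carried Teto-MYC and Teto-Cre beside EμSR-tTA and Rosa26LOXPEGFP. They gave 3 Dnmt3b-deficient lymphomas and 2 samples of thymocytes taken before tumors arose, also at 24 days (pre-tumor thymocytes). In all 4 groups a tetracycline-controlled activator made in blood cells (tTA) drives the Teto transgenes, and all carry the EGFP reporter. Tumors were collected once disease was visible and were not sorted, whereas pre-tumor thymi were sorted for EGFP. For the normal thymocytes the sorting is not stated. Each comparison with normal thymocytes therefore joins the MYC transgene to stage, sorting or Cre. For both Dnmt3b-deficient groups it also joins the loss of Dnmt3b. The pre-tumor group has no counterpart with MYC and intact Dnmt3b. Between the tumor genotypes Cre differs together with Dnmt3b. Between Dnmt3b-deficient tumors and pre-tumor thymocytes sorting differs together with stage.

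Splicing removes introns through small nuclear ribonucleoproteins (snRNPs), each an RNA in a protein shell. A ring of Sm proteins, encoded by several Snrp genes, surrounds most of these RNAs, and a ring of Lsm proteins surrounds U6. The SF3A and SF3B complexes hold U2 at the branch point, PRPF proteins build and remodel the complex of U4, U6 and U5, SR proteins (Srsf) promote exon recognition, and hnRNP proteins often oppose or tune it. In MYC-driven lymphoma, dependence of the tumor cells on core splicing and on snRNP assembly has been described, and in T cells a change of hnRNP proteins is known to alter the splicing of CD45.

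Some facts of the whole series bear on what follows. The log2 level of Dnmt3b itself lay between 5.26 and 5.49 in the tumors labelled deficient and between 5.36 and 5.70 in the wild-type tumors, ranges that overlap, so this probe set does not check the genotype labels. The Myc probe set read 7.77 to 8.13 in normal thymocytes and 4.29 to 5.87 on the 8 arrays of mice that carry Teto-MYC. The labels do not say whether it reads the transgene, so the arrays do not check the MYC label, and "MYC groups" and "MYC arrays" name the labelled genotype throughout. The mean log2 level of 8 T cell identity markers was 10.90 to 10.93 in normal thymocytes, 8.80 to 9.30 in wild-type tumors, 9.0 to 9.15 in Dnmt3b-deficient tumors and 9.62 to 10.01 in pre-tumor thymocytes. Of these 8 markers, 7, 6 and 3 fell in wild-type tumors, Dnmt3b-deficient tumors and pre-tumor thymocytes, and none rose. Among 11 markers of double-positive thymocytes, 9, 8 and 7 fell. Neutrophil markers (9 genes) varied between tumors of a group: their mean was 6.91, 6.79 and 4.23 in wild-type tumors and 4.16, 6.40 and 4.51 in Dnmt3b-deficient tumors, against 5.10 to 5.63 in normal and 4.06 in both pre-tumor samples. Of the neutrophil markers 0 were called in limma, and 0 had an unadjusted p under 0.05. The spread in that fit was shared over all 4 groups, the uneven tumors among them. All 9 lay lower before tumors than in normal thymocytes without overlap (median difference −0.85), beside 27.3% of all probe sets. Dendritic cell markers (8 genes) fell for 0, 3 and 4 genes, stroma and endothelium (10) for 4, 2 and 2, macrophages and monocytes (12) for 3 in each comparison with 1 rise in wild-type tumors, erythroid cells (4) for 1 in each, and B cells (7) for 0. At an unadjusted p under 0.05 there were 2, 1 and 1 B cell markers, and 1 dendritic cell marker in wild-type tumors. The part of such shifts in cell content in the results below was not tested, and in bulk RNA fewer cells of a type cannot be told apart from less RNA per cell.

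**Figure D1:**
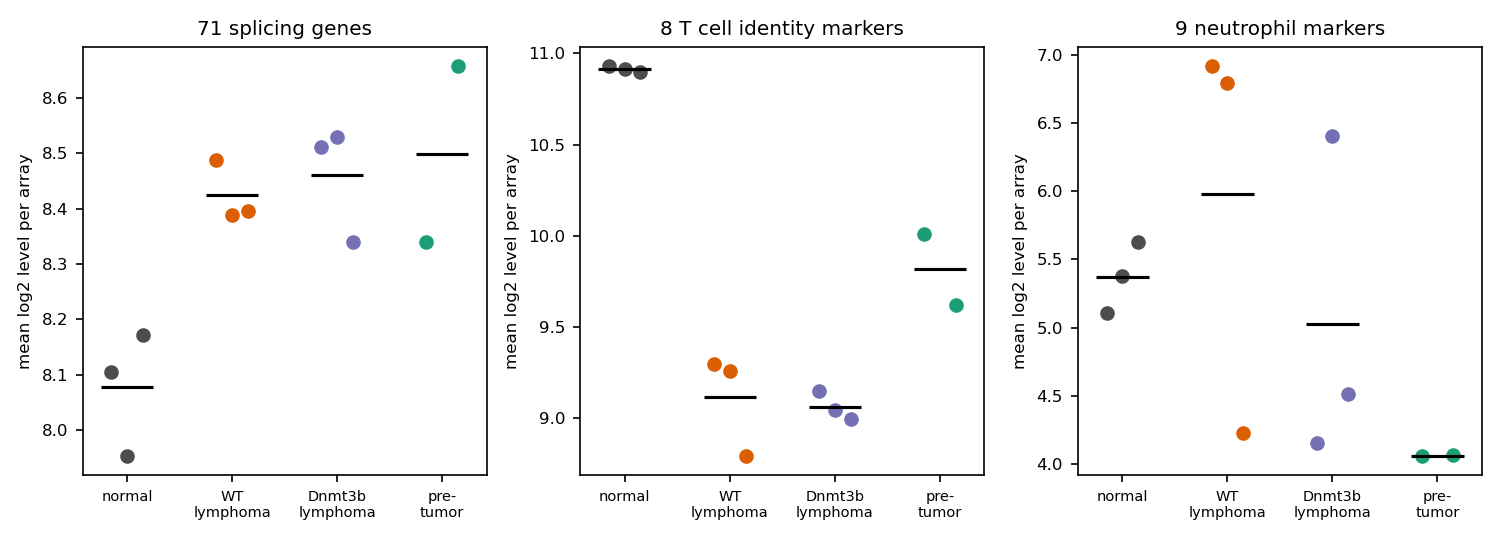
Mean log2 level per array of the 71 splicing genes (left), 8 T cell identity markers (middle) and 9 neutrophil markers (right), with 1 point per array and a line at the mean of each group (WT, wild-type). The splicing genes are lower on the 3 normal arrays (7.95 to 8.17) than on the other arrays (8.34 to 8.66), the T cell markers are highest on the normal arrays, and the neutrophil markers split the arrays of both lymphoma groups.

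Against normal thymocytes, a minority of the splicing genes rose in each of the 3 MYC groups and few fell. A gene was called changed where limma gave a p under 0.05 after Benjamini-Hochberg adjustment over all 28939 tested probe sets, and every difference below is a log2 difference of the first group minus the second, with its standard error (SE). In wild-type tumors 21 of 71 rose and 5 fell, beside 9.58% and 10.3% of all tested probe sets. Dnmt3b-deficient tumors gave 21 and 5 as well (all probe sets 9.70% and 10.5%), and pre-tumor thymocytes 17 and 6 (9.69% and 9.88%), which became 26 and 3 when each array was centred on its median. The median difference over the 71 genes was 0.20, 0.24 and 0.29 in these comparisons, against 0.00, 0.00 and −0.02 over all probe sets.

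Genes with a brighter probe set were called more often in the whole table, which bears on how these counts read. The lower quartile of the members' mean signals was 7.59, and 53 members lay at or above it. Of these 53, 32.1%, 35.8% and 28.3% rose and 5.66%, 7.55% and 7.55% fell in the 3 comparisons. Among all 2222 genes at or above the same signal, 28.4%, 30.2% and 24.8% rose and 22.4%, 23.2% and 21.6% fell. The rising shares of the members were thus near those of brighter genes. This difference in the falling share was described and not tested. Median differences were 0.21, 0.29 and 0.27 for the 53 members and 0.033, 0.095 and −0.007 for the 2222 genes. The 3 comparisons share the same normal samples.

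**Figure D2:**
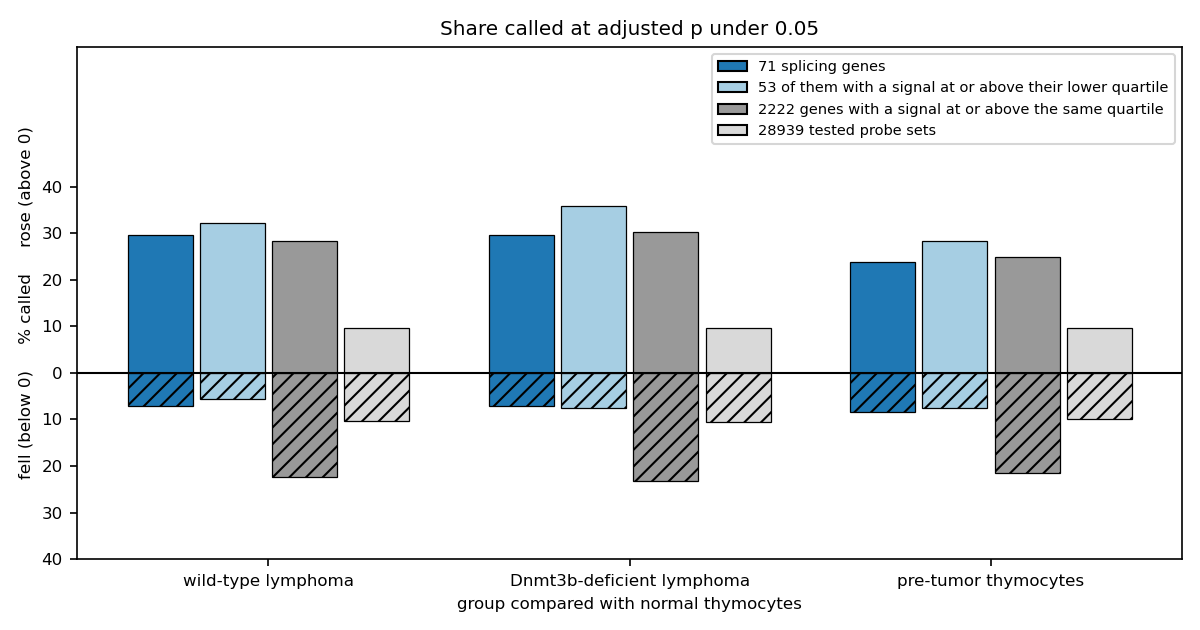
Percent of genes called at an adjusted p under 0.05 in each MYC group against normal thymocytes, with rises above 0 and falls (hatched) below it, for the 71 splicing genes, the 53 of them with a signal at or above their lower quartile, the 2222 genes at or above the same signal and the 28939 tested probe sets. The rising shares of the 53 (28.3% to 35.8%) sit near those of the 2222 genes (24.8% to 30.2%), while their falling shares (5.66% to 7.55%) are lower than 21.6% to 23.2%.

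Gene by gene, 15 members rose in all 3 comparisons: Srsf1, Srsf10 and Srsf11, Snrpb2, Snrpd1 and Snrpg, Sf3a3 and Sf3b1, Lsm6, Hnrnph2, Hnrnpm, Hnrnpr and Hnrnpu, Prpf38b and Prpf4b. Another 4 fell in all 3: Srsf4, Lsm14b, Hnrnpl and Hnrnpul1. No member rose in 1 comparison and fell in another, and 39 were called in none. The matching shares over all probe sets were not computed. Because the normal arrays are the same in all 3, these joint counts are not independent. The arrays of the groups did not overlap, with the MYC group higher, for 34, 36 and 33 members (15.9%, 15.2% and 17.4% of all probe sets). With the MYC group lower there were 6, 8 and 9 members (18.9%, 17.2% and 27.3%). Signal level bears on these counts too. Of the 53 brighter members 26, 30 and 25 were higher without overlap, beside 863, 878 and 832 of the 2222 brighter genes. Lower without overlap were 4, 5 and 5 of the 53, beside 773, 713 and 873 of the 2222.

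These counts rest partly on single samples. In wild-type tumors the number of changed members, 26, became 9 without wild-type replicate 1, 13 without wild-type replicate 2, 16 without normal replicate 1 and 17 without normal replicate 2. For Dnmt3b-deficient tumors 26 became 14 without replicate 2, 16 without replicate 1 and 16 without normal replicate 2, and for pre-tumor thymocytes 23 became 7 without pre-tumor replicate 2 and 15 without normal replicate 1. Over all samples left out in turn, 4 to 6 members fell in each of these comparisons. Without pre-tumor replicate 1, 10 members that were not called before tumors passed: Hnrnpc, Lsm2, Lsm5, Lsm7, Prpf3, Prpf38a, Sf3b6, Snrpa1, Snrpd2 and Snrpd3. Normal replicate 2 was the lowest of the 3 normal arrays for 36 of 71 members (50.7%, against 40.6% of the 2222 genes), and pre-tumor replicate 2 lay above replicate 1 for 56 of 71, by a median of 0.26 (0.07 over the 2222 genes).

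**Figure D3:**
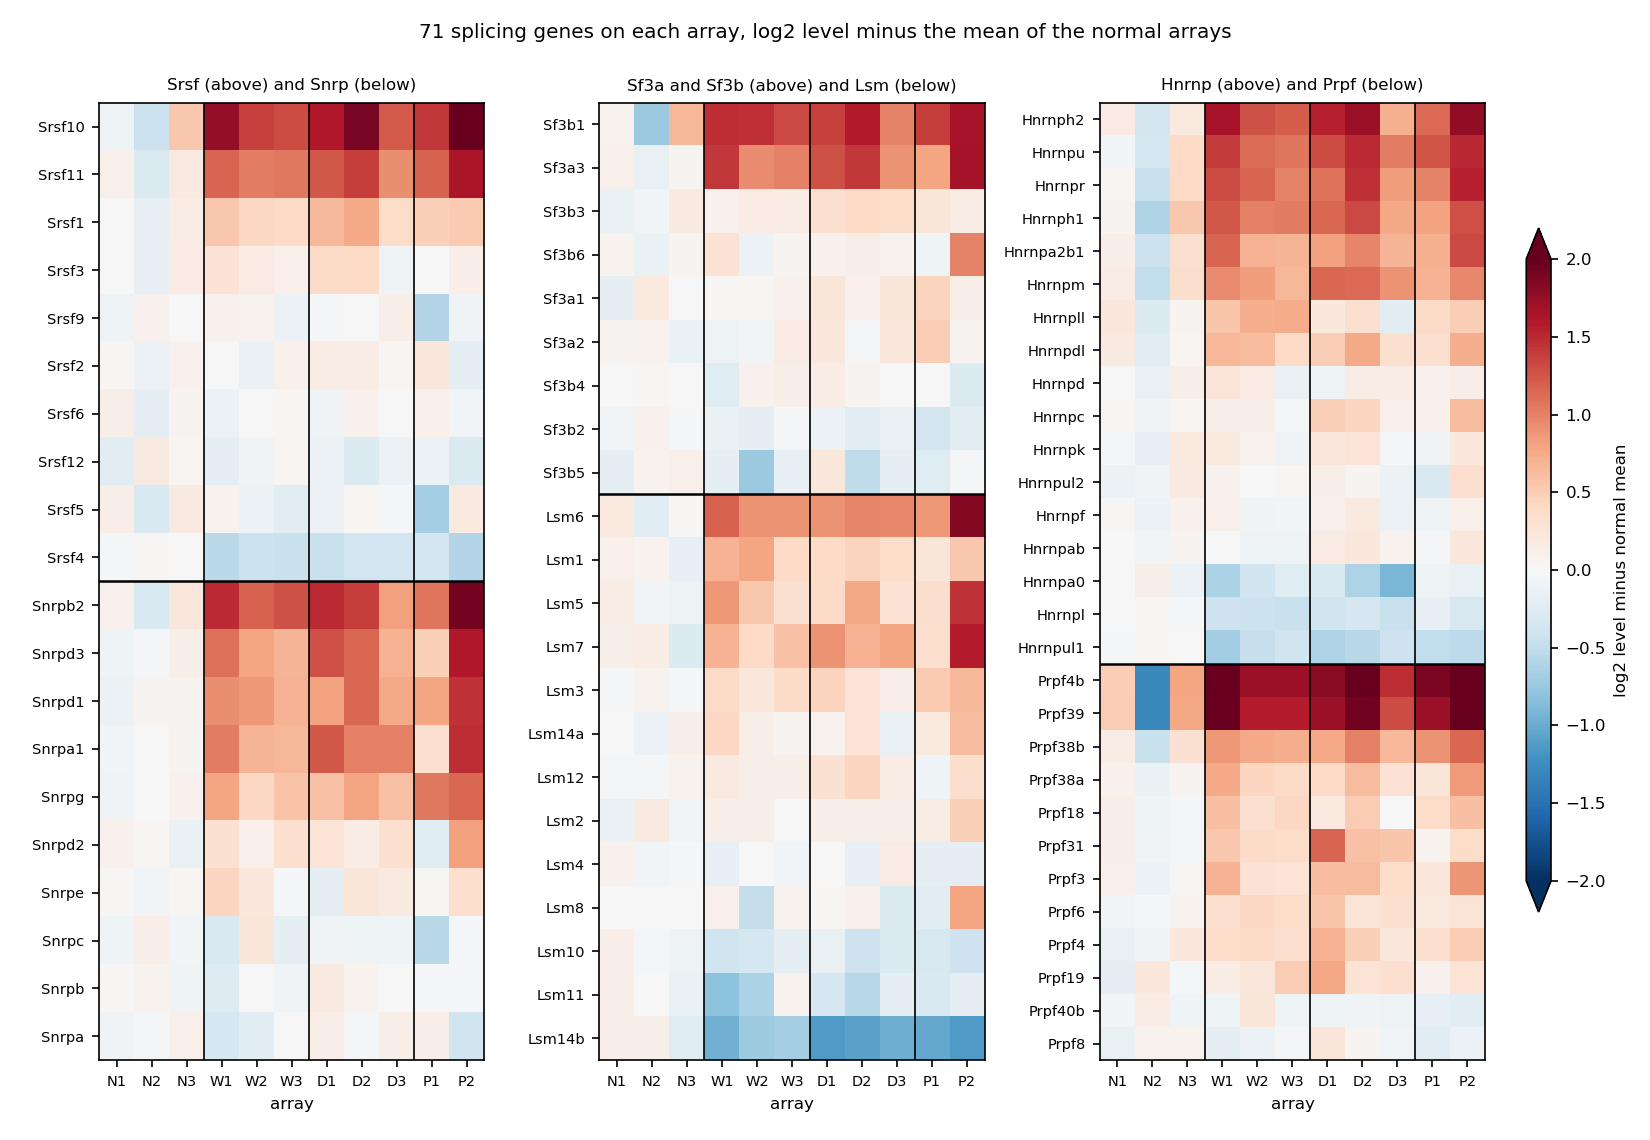
Log2 level of each of the 71 splicing genes on each array minus the mean of the 3 normal arrays, with genes in rows by family and arrays in columns (N, normal; W, wild-type lymphoma; D, Dnmt3b-deficient lymphoma; P, pre-tumor). Red is higher and blue lower than normal. A block of genes in every family is red on all 8 MYC arrays, most other rows are pale, Prpf4b and Prpf39 are low on normal array 2, and array P2 is redder than P1 in many rows.

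The start regions of the members were also searched for 2 short motifs, as a description without a test. RefSeq (GRCm38.p6) gave 80 promoters for 61 of the 71 genes, each running from 250 bases before to 50 bases after a transcript start. The E-box CACGTG, a palindrome that MYC and MAX bind, was present in 8 of these 61 genes (13.1%), against 8.09% of 27025 genes in the table and 14.2% of 1855 genes at or above the signal of 7.59. The ETS core CCGGAAG, on either strand, was present in 20 (32.8%), against 9.93% of all genes and 26.3% of the 1855. Of 18 members with a promoter that rose in wild-type tumors, 2 held the E-box and 6 the ETS core. Among the 38 that were not called, 6 and 13 did, and among the 5 that fell, 0 and 1 did. Matches are a description of the letters and show no binding.

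Those 2 E-box genes, Hnrnph2 and Hnrnpm, are shown first, followed by 2 of the strongest risers with an ETS core, Prpf4b and Snrpb2, with the motif in capitals. These 4 were chosen after the search. They lie at chrX:134600929-134601228 (plus strand), chr17:33685409-33685708 (minus strand), chr13:34875279-34875578 (plus strand) and chr2:143062819-143063118 (plus strand), build GRCm38.p6.
Hnrnph2: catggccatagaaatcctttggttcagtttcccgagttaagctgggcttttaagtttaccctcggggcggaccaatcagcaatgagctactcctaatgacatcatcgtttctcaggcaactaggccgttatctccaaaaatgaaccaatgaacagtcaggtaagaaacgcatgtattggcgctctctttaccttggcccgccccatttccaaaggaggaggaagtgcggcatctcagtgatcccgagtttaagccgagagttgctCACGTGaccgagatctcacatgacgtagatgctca
Hnrnpm: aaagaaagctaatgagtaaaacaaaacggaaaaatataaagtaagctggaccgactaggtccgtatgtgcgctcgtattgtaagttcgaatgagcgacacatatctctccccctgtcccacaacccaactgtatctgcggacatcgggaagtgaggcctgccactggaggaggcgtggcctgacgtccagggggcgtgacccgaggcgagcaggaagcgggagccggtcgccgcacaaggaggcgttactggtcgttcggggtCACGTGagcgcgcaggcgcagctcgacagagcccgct
Prpf4b: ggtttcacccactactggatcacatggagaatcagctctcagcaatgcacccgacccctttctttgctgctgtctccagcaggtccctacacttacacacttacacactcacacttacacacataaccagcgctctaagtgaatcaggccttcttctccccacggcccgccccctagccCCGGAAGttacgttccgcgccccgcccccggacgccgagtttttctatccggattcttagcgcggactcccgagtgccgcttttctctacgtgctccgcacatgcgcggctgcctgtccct
Snrpb2: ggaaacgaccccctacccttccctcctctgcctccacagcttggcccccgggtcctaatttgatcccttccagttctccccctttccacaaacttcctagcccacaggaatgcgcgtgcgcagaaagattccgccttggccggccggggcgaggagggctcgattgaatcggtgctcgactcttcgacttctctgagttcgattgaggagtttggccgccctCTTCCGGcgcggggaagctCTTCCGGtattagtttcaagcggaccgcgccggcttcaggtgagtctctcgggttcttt
In Hnrnph2 and Hnrnpm the E-box begins 15 and 13 bases after the start site, respectively. In Prpf4b the ETS core begins 71 bases before the start. Snrpb2 has the core on the opposite strand at 2 places, 28 and 9 bases before the start.

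Among the SR proteins, 3 of 10 rose and 1 fell in each of the 3 comparisons with normal thymocytes. These shares of 30% and 10% stand beside 9.58%, 9.70% and 9.69% of all probe sets that rose and 10.3%, 10.5% and 9.88% that fell. Among the 2222 brighter genes 28.4%, 30.2% and 24.8% rose and 22.4%, 23.2% and 21.6% fell. Family shares below are to be read beside the same values. Srsf11, an SR-like protein linked to 3′ splice site recognition, read 7.06, 6.67 and 7.15 on the normal arrays, 8.13, 7.99 and 8.01 in wild-type tumors, 8.20, 8.35 and 7.89 in Dnmt3b-deficient tumors, and 8.13 and 8.59 in pre-tumor thymocytes. Every MYC array lay above every normal array. It rose by 1.08 in wild-type tumors (SE 0.18, adjusted p = 0.00546 in limma), by 1.19 in Dnmt3b-deficient tumors (SE 0.18, 0.00342) and by 1.40 before tumors (SE 0.20, 0.00437), about 2.12-fold, 2.28-fold and 2.64-fold.

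Srsf10, an SR protein that represses splicing when it loses its phosphates, showed the largest rise of the family. Its normal levels were 7.89, 7.56 and 8.52, and it read 9.74, 9.35 and 9.29 in wild-type tumors, 9.59, 9.89 and 9.22 in Dnmt3b-deficient tumors, and 9.40 and 9.98 before tumors. The groups did not overlap, although normal replicate 3 stood above the other normal arrays. The differences were 1.47 (SE 0.30, limma adjusted p = 0.0128), 1.58 (SE 0.30, 0.00886) and 1.70 (SE 0.33, 0.0126). By its ID this probe set lies among genes of another chromosome than Srsf10. The other probe set of the gene gave smaller rises of 0.97, 0.93 and 1.13 (limma adjusted p = 0.0301, 0.0352 and 0.0269). The call was lost without wild-type replicate 1 (0.0507) in wild-type tumors and without pre-tumor replicate 2 (0.11) in pre-tumor thymocytes.

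Srsf4, one of the larger SR proteins, moved the other way by a small and even amount. It stood at 10.03, 10.07 and 10.07 on the normal arrays and at 9.52, 9.62 and 9.61, then 9.61, 9.68 and 9.68, then 9.67 and 9.48 in the MYC groups. No array of a MYC group reached the normal range. It fell by 0.48 (SE 0.05, limma adjusted p = 0.00115), 0.40 (SE 0.05, 0.00174) and 0.48 (SE 0.06, 0.00249), and the calls held without any single sample.

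Srsf1, the founding SR protein and a splicing factor with oncogenic activity, rose by 0.45 (SE 0.11, limma adjusted p = 0.0287), 0.59 (SE 0.11, 0.00926) and 0.50 (SE 0.13, 0.0304) from normal levels of 9.33, 9.17 and 9.48. In wild-type tumors the adjusted p lay between 0.0558 and 0.0995 without normal replicate 1 or 2 or without any 1 of the tumors, and before tumors it missed the threshold without normal replicate 1 (0.0689), normal replicate 2 (0.0828), pre-tumor replicate 1 (0.085), pre-tumor replicate 2 (0.177) or wild-type replicate 2 (0.0505). The remaining SR genes were not called with all samples. Srsf9 went from −0.33 to −0.58 before tumors, and passed (limma adjusted p = 0.0329), without pre-tumor replicate 2. Srsf3 went from 0.24 to 0.39 in Dnmt3b-deficient tumors, and passed (0.0467), without replicate 3 of that group. Srsf2, whose product is mutated in myeloid disease, differed by −0.01, 0.11 and 0.02 (SE 0.11, 0.11 and 0.13). Srsf3 differed by 0.19, 0.24 and 0.08 (SE 0.14, 0.14 and 0.16), and Srsf6 by −0.03, 0.00 and 0.03 (SE 0.09, 0.09 and 0.10). For Srsf3 the probe set on its own chromosome read 0.50, 0.25 and 0.82, also uncalled (limma adjusted p = 0.21, 0.609 and 0.0721), so its size depends on the probe set.

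**Figure D4:**
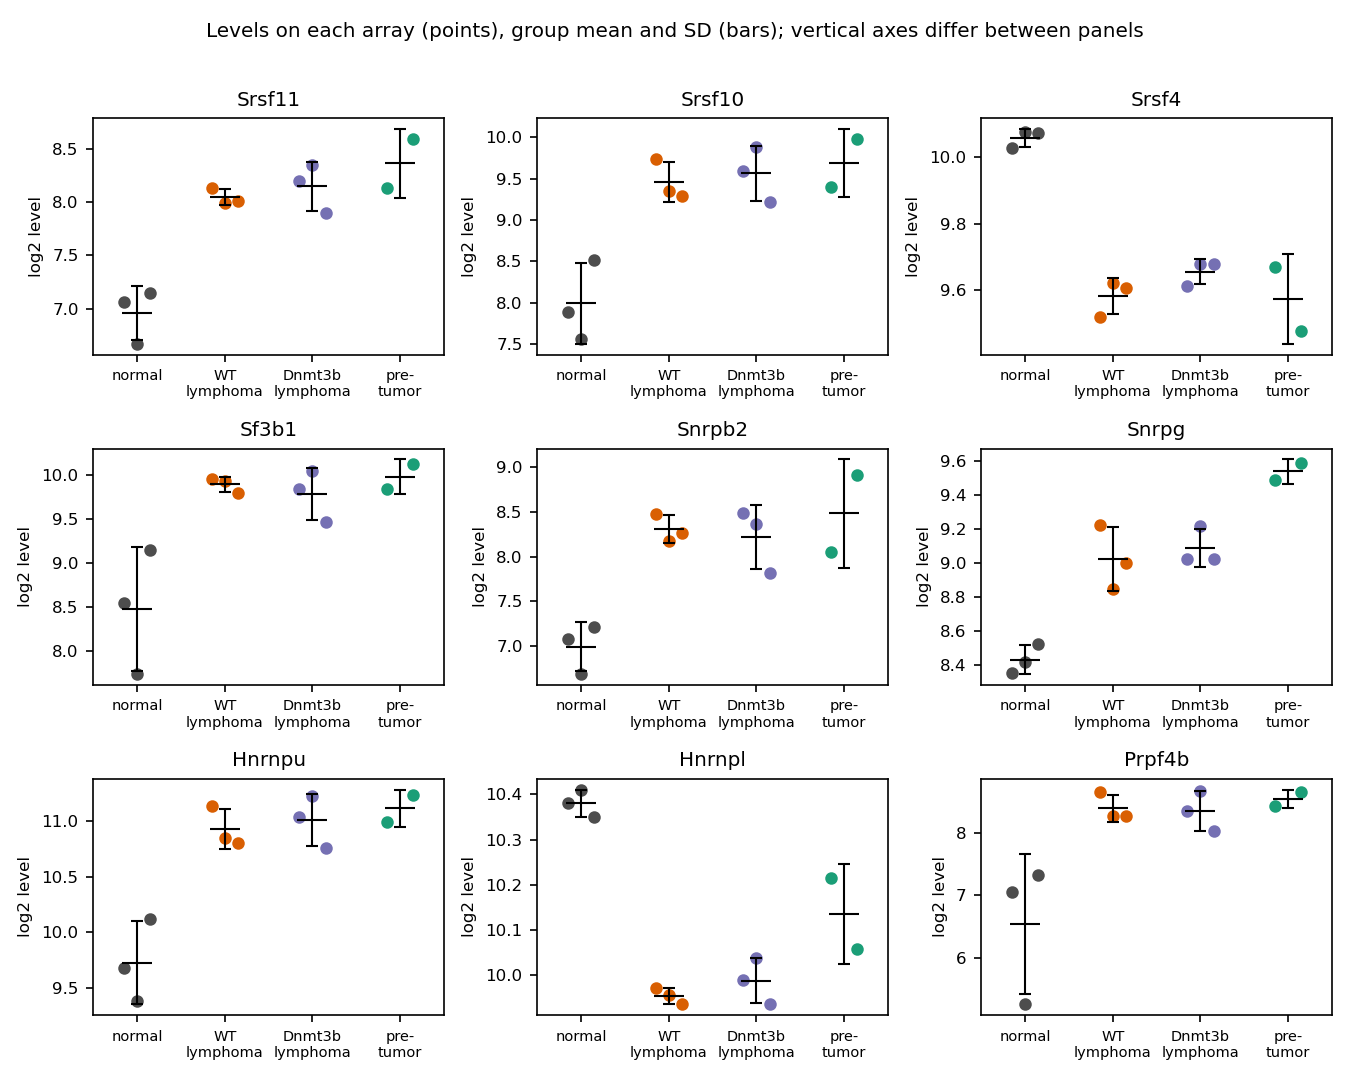
Log2 level on each array (points) with the mean and SD of each group (bars) for 9 of the named genes (WT, wild-type). Vertical axes differ between panels and do not start at 0. In 7 panels every MYC array lies above every normal array, and in the panels of Srsf4 and Hnrnpl every MYC array lies below. The normal arrays of Prpf4b and Sf3b1 spread widely, between 5.26 and 7.33 and between 7.73 and 9.15.

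Of the 10 snRNP protein genes, 3 rose in wild-type tumors, 5 in Dnmt3b-deficient tumors and 3 before tumors, and none fell. The rising shares were 30%, 50% and 30%, beside the shares of all probe sets and brighter genes given for the SR proteins. Snrpg, a member of the Sm ring, read 8.36, 8.42 and 8.52 on the normal arrays, 9.23, 8.85 and 9.0 in wild-type tumors, 9.02, 9.21 and 9.02 in Dnmt3b-deficient tumors, and 9.49 and 9.59 in pre-tumor thymocytes. On this probe set the normal arrays lay lowest and the pre-tumor arrays highest, with no overlap between normal, lymphoma and pre-tumor samples. It rose by 0.59 (SE 0.10, limma adjusted p = 0.00673), 0.65 (SE 0.10, 0.00415) and 1.11 (SE 0.11, 0.00179), and each call held without any single sample. Its probe set also lies by ID among genes of another chromosome. The other probe set gave 0.61 in wild-type tumors (limma adjusted p = 0.00633) and 0.84 before tumors (0.00413). On it the pre-tumor samples (8.47 and 8.16) overlapped the Dnmt3b-deficient tumors (8.11, 8.17 and 7.89).

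Snrpb2, a protein specific to U2, rose most in this family. It read 7.08, 6.69 and 7.21 on the normal arrays, 8.48, 8.17 and 8.27 and then 8.49, 8.37 and 7.82 in the tumors, and 8.06 and 8.91 before tumors. All MYC arrays were above the normal ones, though the pre-tumor pair differed from each other by more than the tumors did. The differences were 1.31 (SE 0.27, limma adjusted p = 0.0137), 1.23 (SE 0.27, 0.0167) and 1.49 (SE 0.30, 0.0142). The call went without wild-type replicate 1 (0.0539) in wild-type tumors. In Dnmt3b-deficient tumors it went without Dnmt3b-deficient replicate 1 (0.0549) or 2 (0.06) or normal replicate 2 (0.0601), and in pre-tumor thymocytes without pre-tumor replicate 2 (0.106).

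Snrpd1, another Sm ring protein, rose by 0.83, 0.91 and 1.12 (SE 0.18, 0.18 and 0.20; limma adjusted p = 0.0165, 0.0108 and 0.00942) from normal levels of 8.06, 8.23 and 8.23. In wild-type tumors the call was lost without normal replicate 1 (0.0548) or wild-type replicate 1 (0.0625) or 2 (0.0536), and before tumors without pre-tumor replicate 2 (0.051). Snrpd3, also a protein of the Sm ring, passed by a narrow margin in Dnmt3b-deficient tumors (1.04, SE 0.29, limma adjusted p = 0.0404). That call was lost without any 1 normal array, wild-type tumor or without Dnmt3b-deficient replicate 1 or 2 (0.0552 to 0.118). In wild-type tumors Snrpd3 differed by 0.85 (SE 0.29, 0.0809) and before tumors by 1.04 (SE 0.32, 0.0613). Both passed with quantile normalization (0.0491 and 0.0373), the first also without either pre-tumor sample (0.0186) and the second with median centring (0.0382) or without pre-tumor replicate 1 (1.60, 0.00928). Without the probe sets at the floor on all arrays both passed as well (0.0423 and 0.0304). Snrpa1, the other U2-specific protein, read 6.93 to 7.04 in normal thymocytes and 7.64 to 8.22 in the tumors. It rose by 1.09 in Dnmt3b-deficient tumors (SE 0.26, 0.023; 0.0524 to 0.0712 without any 1 of those tumors or of the normal arrays), while the 0.79 in wild-type tumors (SE 0.26, 0.076) and 0.91 before tumors (SE 0.29, 0.0694) did not pass. Snrpa1 passed in wild-type tumors without either pre-tumor sample (0.00499), and before tumors without pre-tumor replicate 1 (1.47, 0.00369) or with median centring (0.0445). It passed in both without the probe sets at the floor on all arrays (0.0397 and 0.0359).

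The other ring and U1 genes were not called. Snrpb, which encodes the Sm B proteins, differed by −0.12, 0.08 and −0.04 (SE 0.08, 0.08 and 0.09). Snrpa, the A protein of the U1 snRNP, differed by −0.20, 0.07 and −0.13 (SE 0.15, 0.15 and 0.16). Snrpc, Snrpd2 and Snrpe were likewise called in no comparison, with differences between −0.30 and 0.29. Snrpd2 moved from 0.29 to 0.81 before tumors, and passed (limma adjusted p = 0.00894), without pre-tumor replicate 1.

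In the U2 branch point complexes, 2 of 9 genes rose in wild-type tumors, 3 in Dnmt3b-deficient tumors, and 2 rose and 1 fell before tumors. Rising shares of 22.2%, 33.3% and 22.2% stand beside the same background shares. Sf3b1, the subunit that clamps the branch point and is often mutated in blood cancers, read 8.54, 7.73 and 9.15 on the normal arrays. The wild-type tumors were at 9.96, 9.94 and 9.80, the Dnmt3b-deficient ones at 9.85, 10.05 and 9.47, and the pre-tumor samples at 9.85 and 10.13. The groups did not overlap, but the normal arrays spread far more (SD 0.71) than the wild-type tumors (SD 0.09). Sf3b1 rose by 1.42 (SE 0.33, limma adjusted p = 0.0221), 1.31 (SE 0.33, 0.029) and 1.51 (SE 0.37, 0.0275). Each call went without normal replicate 1 (0.0557, 0.0702 and 0.0601), and each also went without wild-type replicate 1 or 2 (0.073 and 0.0659), Dnmt3b-deficient replicate 1 or 2 (0.0776 and 0.0975) or pre-tumor replicate 1 or 2 (0.0686 and 0.179) in its own comparison.

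Sf3a3, a subunit of SF3A, had a tight normal group (7.39, 7.14 and 7.35) and read 8.71, 8.23 and 8.30 in wild-type tumors, 8.57, 8.71 and 8.19 in Dnmt3b-deficient tumors, and 8.08 and 8.95 before tumors. No MYC array fell within the normal range. It rose by 1.12 (SE 0.25, limma adjusted p = 0.0183), 1.2 (SE 0.25, 0.0132) and 1.22 (SE 0.28, 0.0208). Its calls were lost without normal replicate 2 (0.0655, 0.0502 and 0.065), without wild-type replicate 1 (0.0665), Dnmt3b-deficient replicate 2 (0.0501) or pre-tumor replicate 2 (0.137).

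Sf3b3, which scaffolds the complex, rose in Dnmt3b-deficient tumors by 0.36 (SE 0.08, limma adjusted p = 0.0132; 0.0508 without normal replicate 2, and 0.21 with 0.305 after quantile normalization), and differed by 0.13 and 0.20 in the other comparisons without being called (both passed without normal replicate 3, at 0.0162 and 0.0112). Sf3b2 fell before tumors by 0.30 (SE 0.07, 0.0189), a call lost without normal replicate 2 (0.0502) or pre-tumor replicate 1 (0.0961), or with median centring (0.0843). The other 5 subunits, Sf3a1, Sf3a2, Sf3b4, Sf3b5 and Sf3b6, were called in none. Sf3b6 differed between the pre-tumor samples themselves, at 6.28 and 7.36, and passed before tumors without the first of them (0.99, limma adjusted p = 0.00965).

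The Lsm genes serve several RNAs, and they were called in both directions. In wild-type tumors 3 of 13 rose and 2 fell, in Dnmt3b-deficient tumors 1 rose and 1 fell, and before tumors 2 rose and 2 fell. Rising shares were 23.1%, 7.69% and 15.4% and falling shares 15.4%, 7.69% and 15.4%, beside the same background shares. Lsm6, shared by the nuclear U6 ring and the cytoplasmic decay ring, rose in all 3 comparisons by 0.99 (SE 0.23, limma adjusted p = 0.0227), 0.95 (SE 0.23, 0.0261) and 1.35 (SE 0.26, 0.012). Its levels were 6.62, 6.20 and 6.44 in normal thymocytes and 7.29 to 8.25 on the 8 MYC arrays. The wild-type call was lost without normal replicate 2 or 3 or wild-type replicate 1 or 2 (0.054 to 0.0825), and the Dnmt3b-deficient call without normal replicate 2 or 3 or any 1 of its tumors (0.0621 to 0.0907).

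Lsm14b, which belongs to cytoplasmic granules of untranslated mRNA and not to the spliceosome, fell the most of all members. It read 7.63, 7.61 and 7.26 on the normal arrays, 6.55, 6.80 and 6.84 in wild-type tumors, 6.36, 6.43 and 6.52 in Dnmt3b-deficient tumors, and 6.48 and 6.38 before tumors. All MYC arrays were below all normal ones. It fell by 0.77 (SE 0.12, limma adjusted p = 0.00412), 1.07 (SE 0.12, 0.00111) and 1.07 (SE 0.13, 0.00286), and the calls held without any single sample.

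Lsm1, specific to the cytoplasmic decay ring, rose in wild-type tumors by 0.63 (SE 0.13, limma adjusted p = 0.0122). It differed by 0.40 in Dnmt3b-deficient tumors (0.0659, and 0.0342 without wild-type replicate 3) and by 0.39 before tumors (0.103). Lsm3 rose in wild-type tumors by 0.33 (SE 0.08, 0.0308) and before tumors by 0.59 (SE 0.09, 0.00634). Its wild-type call was lost without any 1 normal array or without wild-type replicate 1 or 3 (0.0521 to 0.103), and its pre-tumor call without pre-tumor replicate 2 (0.0594). Lsm10, part of the U7 snRNP that processes histone mRNA, fell in wild-type tumors by 0.31 (SE 0.09), with a limma adjusted p that rounds to the threshold of 0.05, and before tumors by 0.37 (SE 0.10, 0.0422). Both Lsm10 calls were lost without any 1 of several samples (0.0542 to 0.253), among them normal replicate 1 or 2 and wild-type replicate 1 or 2 in each comparison, and pre-tumor replicate 1 or 2, and with median centring (0.0858 and 0.0925). Of the U6 ring genes without a call, Lsm2 differed by 0.08, 0.12 and 0.31 (SE 0.10, 0.10 and 0.12; 0.48 before tumors, limma adjusted p = 0.0352, without pre-tumor replicate 1), and Lsm7 by 0.56, 0.79 and 0.95 (SE 0.29, 0.29 and 0.32). Lsm7 passed in all 3 comparisons without pre-tumor replicate 1 (0.0295, 0.00812 and 0.00468), and in both tumor groups without pre-tumor replicate 2 (again 0.0295 and 0.00812). Its level was 7.81 in pre-tumor replicate 1 and 9.03 in replicate 2.

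The Hnrnp family held both some of the largest rises and the most even falls. In wild-type tumors 7 of 17 rose and 2 fell, in Dnmt3b-deficient tumors 5 rose and 3 fell, and before tumors 5 rose and 2 fell. Rising shares were 41.2%, 29.4% and 29.4% and falling shares 11.8%, 17.6% and 11.8%, beside the same background shares. Hnrnpu, an abundant chromatin-bound RNA-binding protein, read 9.68, 9.38 and 10.12 on the normal arrays, 11.13, 10.84 and 10.80 in wild-type tumors, 11.03, 11.22 and 10.76 in Dnmt3b-deficient tumors, and 10.99 and 11.23 before tumors. Every MYC array was above the highest normal one. It rose by 1.2 (SE 0.21, limma adjusted p = 0.00673), 1.27 (SE 0.21, 0.00473) and 1.38 (SE 0.23, 0.00737), about 2.29-fold, 2.42-fold and 2.61-fold. Only the pre-tumor call depended on a single sample (0.0669 without pre-tumor replicate 2).

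Hnrnph2, which binds runs of G, had the largest rise of the family in each comparison, at 1.38, 1.33 and 1.45 (SE 0.32, 0.32 and 0.35; limma adjusted p = 0.0205, 0.0229 and 0.0266). Its levels were 6.75, 6.22 and 6.79 in normal thymocytes and between 7.29 and 8.37 in the MYC groups. The probe set lies by ID among genes of another chromosome, and the one on the X chromosome gave 1.36, 1.29 and 1.5, also called. The calls were lost without normal replicate 2 in all 3 comparisons (0.0715, 0.0793 and 0.0783), without normal replicate 1 in Dnmt3b-deficient tumors (0.0504) and before tumors (0.052), and without wild-type replicate 1 or 2 (0.0757 and 0.0524), Dnmt3b-deficient replicate 1 or 2 (0.0717 and 0.0771) or pre-tumor replicate 2 (0.205) in the respective comparison. Hnrnpr rose by 1.15, 1.13 and 1.27 (SE 0.26, 0.26 and 0.29; 0.0197, 0.0203 and 0.0216). Hnrnpm, which controls alternative exons, rose by 0.81, 1.06 and 0.83 (SE 0.21, 0.21 and 0.24; 0.0341, 0.0114 and 0.0476). For Hnrnpr each call was lost without normal replicate 1 (0.052, 0.0545 and 0.051) or 2 (0.0558, 0.0578 and 0.0518), wild-type replicate 1 or 2 (0.0724 and 0.0592), Dnmt3b-deficient replicate 1 or 2 (0.0523 and 0.069) or pre-tumor replicate 2 (0.173) of the comparison. Hnrnpm kept its call in Dnmt3b-deficient tumors without any single sample. Its wild-type call was lost without any 1 wild-type tumor, normal replicate 1 or Dnmt3b-deficient replicate 1 or 2 (0.0505 to 0.112), and its pre-tumor call without any sample other than normal replicates 2 and 3 (0.0637 to 0.281). Quantile normalization also ended both (0.0831 and 0.0894).

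Hnrnpa2b1, a reader of RNA sequence and methylation marks, rose in wild-type tumors by 0.85 (SE 0.25, limma adjusted p = 0.0497) and before tumors by 1.02 (SE 0.28, 0.0392). It differed by 0.83 in Dnmt3b-deficient tumors (SE 0.25, 0.0541), just outside the threshold. The wild-type call was lost without any 1 lymphoma of either genotype or without normal replicate 1 or 2 (0.0693 to 0.156). The pre-tumor call was lost without normal replicate 1 or 2, wild-type replicate 2 or 3, pre-tumor replicate 2 or any 1 Dnmt3b-deficient lymphoma (0.0551 to 0.283), and Dnmt3b-deficient tumors passed without normal replicate 3 or either pre-tumor sample (0.0483 to 0.0484). Its order over arrays was 9.0, 8.45 and 9.20 in normal thymocytes against 9.56 to 10.21 in all MYC samples, with no overlap.

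Hnrnpl, which represses exons through CA-rich RNA, had the smallest standard error of any member. It read 10.38, 10.41 and 10.35 on the normal arrays, 9.97, 9.96 and 9.94 in wild-type tumors, 9.99, 10.04 and 9.94 in Dnmt3b-deficient tumors, and 10.21 and 10.06 before tumors. The MYC arrays all lay below the normal ones, and the tumors of both genotypes below the pre-tumor samples. It fell by 0.43 (SE 0.04, limma adjusted p = 0.000968), 0.39 (SE 0.04, 0.00102) and 0.24 (SE 0.05, 0.0119; 0.0652 without pre-tumor replicate 2, and −0.17 with 0.0672 after median centring). Hnrnpul1, related to Hnrnpu and involved in the DNA damage response, fell by 0.52, 0.53 and 0.51 (SE 0.08, 0.08 and 0.09; 0.0043, 0.00342 and 0.00839), and missed the threshold only before tumors without pre-tumor replicate 2 (0.0684). Its normal levels of 9.61, 9.68 and 9.62 stood above all MYC arrays (8.95 to 9.24).

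Hnrnpll, which shifts CD45 splicing as T cells are activated, rose in wild-type tumors by 0.68 (SE 0.17, limma adjusted p = 0.0306). It read 6.74, 6.24 and 6.57 on the normal arrays, 7.06, 7.25 and 7.26 in wild-type tumors, 6.73, 6.83 and 6.28 in Dnmt3b-deficient tumors, and 6.89 and 7.01 before tumors. Wild-type tumors lay above both the normal and the Dnmt3b-deficient arrays, which overlapped each other (0.10, SE 0.17, 0.863), although the direct difference between the tumor genotypes did not pass (adjusted p = 0.645). The call was lost without any 1 wild-type tumor or without normal replicate 2 or 3 (0.0607 to 0.0897). Hnrnpa0 fell in Dnmt3b-deficient tumors by 0.61 (SE 0.16, 0.033; 0.0518 to 0.11 without any 1 of the normal or pre-tumor samples, wild-type replicate 2 or Dnmt3b-deficient replicate 2 or 3). Hnrnph1 rose by 1.09 in both lymphoma groups (SE 0.29 each, 0.0369 and 0.0371) and differed by 1.05 before tumors (0.0637, and 0.0258 without normal replicate 3). Both Hnrnph1 calls were lost without any 1 wild-type tumor, normal replicate 1 or 2 or Dnmt3b-deficient replicate 1 or 2 (0.0502 to 0.12). The abundant Hnrnpk, which binds C-rich RNA, differed by 0.07, 0.16 and 0.07 (SE 0.13, 0.13 and 0.15), and Hnrnpf by −0.01, 0.06 and 0.00 (SE 0.10, 0.10 and 0.11).

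Of the 12 Prpf genes, 3, 4 and 2 rose in wild-type tumors, Dnmt3b-deficient tumors and pre-tumor thymocytes, and none fell. Rising shares of 25%, 33.3% and 16.7% stand beside the same background shares. Prpf4b, a kinase of the tri-snRNP, had the largest difference of all 71 members in each comparison, and also the least even normal group. It read 7.05, 5.26 and 7.33 on the normal arrays, 8.64, 8.27 and 8.26 in wild-type tumors, 8.35, 8.67 and 8.02 in Dnmt3b-deficient tumors, and 8.43 and 8.65 before tumors. Normal replicate 2 was far below the other normal arrays, and all MYC arrays were above the normal range. The rises of 1.84, 1.8 and 1.99 (SE 0.50, 0.50 and 0.56) were close to the threshold (limma adjusted p = 0.0398, 0.0426 and 0.0454). Without normal replicate 2 they were 1.2, 1.16 and 1.35, below the 1.26, 1.36 and 1.49 of Srsf10, so the top rank rests on that array. The calls were lost when any sample other than normal replicate 2 or 3 was left out (0.0535 to 0.229).

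Prpf39, a U1-associated protein, followed the same course and was not called. It read 5.47, 3.69 and 5.75 in normal thymocytes and 6.28 to 7.17 in the MYC groups, with differences of 1.71, 1.66 and 1.96 (SE 0.51, 0.51 and 0.57; limma adjusted p = 0.0553, 0.0614 and 0.0516). Without normal replicate 2 all 3 passed (0.0372, 0.0403 and 0.0278), as they did without normal replicate 3 (0.0367, 0.0384 and 0.0348). They also passed without the probe sets at the floor on all arrays (0.0251, 0.0283 and 0.0232). Only 4 members had an SD above 0.5 in normal thymocytes: Prpf4b, Prpf39, Sf3b1 and Hnrnph1. In each of the 4, replicate 2 was lowest and replicate 3 highest.

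Prpf6, which bridges the tri-snRNP, changed by less but more evenly. It stood at 7.62, 7.65 and 7.75 on the normal arrays against 8.0, 8.08 and 8.04 in wild-type tumors and 8.22, 7.94 and 8.0 in Dnmt3b-deficient tumors, without overlap. It rose by 0.37 and 0.38 (SE 0.07 each, limma adjusted p = 0.0116 and 0.00925), and differed by 0.23 before tumors (0.0911, and 0.0162 without Dnmt3b-deficient replicate 1). Prpf38b rose by 0.78, 0.81 and 1.03 (SE 0.19, 0.19 and 0.21; 0.0263, 0.0218 and 0.0153). These calls were lost without any 1 wild-type tumor (0.0554 to 0.0889), Dnmt3b-deficient replicate 1 or 2 (0.0531 and 0.0768) or pre-tumor replicate 2 (0.124) of the comparison. Prpf31, a tri-snRNP protein mutated in inherited retinal degeneration, rose in Dnmt3b-deficient tumors by 0.77 (SE 0.17, 0.0157; 0.0572 without normal replicate 2), and differed by 0.43 in wild-type tumors (0.125; 0.0226 without Dnmt3b-deficient replicate 1) and by 0.22 before tumors (0.511). Prpf8, the protein at the catalytic centre, differed by −0.12, 0.08 and −0.17 (SE 0.09, 0.09 and 0.10), and Prpf19, a ubiquitin ligase of the active complex, by 0.30, 0.46 and 0.17 (SE 0.17, 0.17 and 0.19). Neither was called.

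Between the tumor genotypes no member was called. In limma 0 of 71 were called, beside 0.00346% of probe sets called in each direction (1 rose and 1 fell). At an unadjusted p under 0.05 there were 5 of 71 (Hnrnpll, Lsm14b, Hnrnpab, Sf3b3 and Snrpb), beside 1823 of all 28939 tested probe sets. The lowest adjusted p among the members was 0.645. The largest difference was that of Hnrnpll, lower in Dnmt3b-deficient tumors by a difference of −0.58 (SE 0.17, 95% interval −0.98 to −0.17, adjusted p = 0.645), with all 3 of its arrays below the wild-type ones. The next values below 0 were −0.29 for Lsm14b, −0.23 for Lsm1, −0.21 for Prpf18 and −0.19 for Hnrnpa0. The largest values above 0 were 0.34 for Prpf31, 0.30 for Snrpa1, 0.27 for Snrpa, 0.26 for Hnrnpc and 0.25 for Hnrnpm.

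The intervals for these 6 tumors rest on a spread shared over all 4 groups, so normal and pre-tumor arrays also set their width. The 95% interval lay within 0.5 of 0 for 36 of 71 members and within 1, a 2-fold change, for 69. Only Prpf39 and Prpf4b reached beyond that, with bounds from −1.25 to 1.15. For both genes the SD was 1.12 in normal thymocytes, but 0.22 to 0.32 in the tumor groups. The arrays of the tumor groups did not overlap for 6 members that were higher and 2 that were lower in Dnmt3b-deficient tumors (8 of 71, beside 4.64% and 3.34% of all probe sets). Of the 2222 brighter genes, 201 were higher and 109 lower without overlap. Leaving out any 1 of the 11 samples gave no call among the members.

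Between pre-tumor thymocytes and tumors of the Dnmt3b-deficient genotype, again 0 of 71 were called, beside 0.0311% of probe sets higher and 0.0380% lower in the tumors. At an unadjusted p under 0.05 there were 7 of 71, beside 2730 of all 28939 tested probe sets. The lowest adjusted p in limma was 0.261, for Snrpg (−0.45, SE 0.11), whose other probe set overlapped between these groups. Hnrnpa0 differed by −0.48 and Lsm3 by −0.31, while Prpf31 (0.55), Srsf9 (0.36), Prpf8 (0.25) and Hnrnpl (−0.15) completed the 7. The arrays did not overlap for 9 members that were higher and 6 that were lower in the tumors (13.1% and 7.83% of all probe sets). The interval stayed within 0.5 of 0 for 30 members and within 1 for 64. With 2 pre-tumor samples that differed from each other for many members, several of these values turn on pre-tumor replicate 2: without it Lsm5, Lsm6 and Sf3b6 went from −0.42, −0.40 and −0.35 to 0.13, 0.08 and 0.19.

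**Figure D5:**
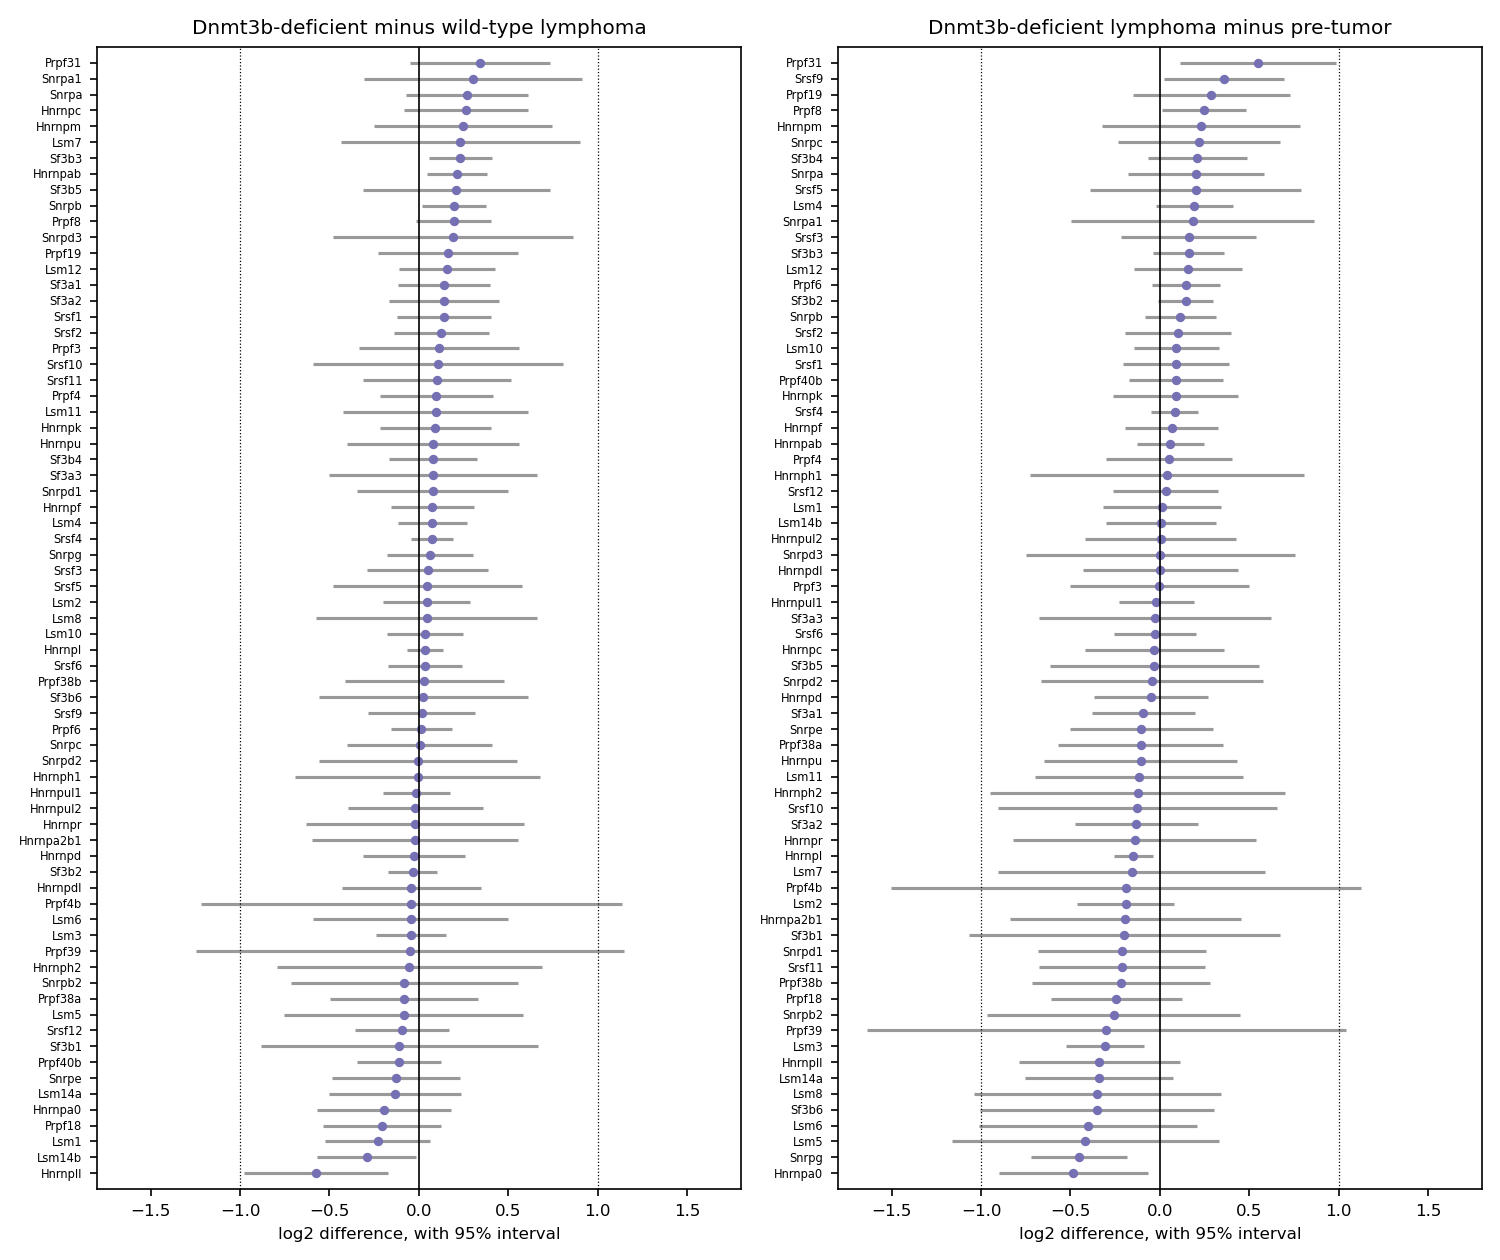
Log2 difference (points) with its 95% interval (lines) for each of the 71 splicing genes, between Dnmt3b-deficient and wild-type tumors (left) and between Dnmt3b-deficient tumors and pre-tumor thymocytes (right), sorted by size. Dotted lines mark a 2-fold change. Most points lie near 0, none was called, and the widest intervals are those of Prpf39 and Prpf4b.

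Genes that build or modify the same machinery were counted by the same test. Of 14 genes for assembly of the Sm ring, 5 rose in wild-type tumors, 8 in Dnmt3b-deficient tumors and 7 before tumors (35.7%, 57.1% and 50%), and none fell. Beside these stand 9.58%, 9.70% and 9.69% of all probe sets and 28.4%, 30.2% and 24.8% of the 2222 brighter genes that rose. This and the other related lists were not cut by signal as the members were. The mean level of the 14 genes per array was 6.64 to 7.37, under the 7.59 of the brighter genes. Strap, which belongs to the SMN complex that loads Sm proteins, rose by 1.62, 1.72 and 1.76 (SE 0.20, 0.20 and 0.23; limma adjusted p = 0.00208, 0.00138 and 0.00326). Prmt5, the enzyme that methylates Sm proteins, rose by 0.65, 0.72 and 0.41 (SE 0.09, 0.09 and 0.10), and Wdr77, its partner, by 0.74, 1.06 and 0.72 (SE 0.15, 0.15 and 0.16). Ddx20, a helicase of the SMN complex, rose by 0.64, 0.86 and 0.80.

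Of 10 kinases and carriers of SR proteins, 3 rose and 2 fell (30% and 20%) in each comparison with normal thymocytes, near the shares of the 2222 brighter genes. Tnpo3, the importer of SR proteins, rose by 1.29, 1.49 and 1.41 (SE 0.15, 0.15 and 0.17), and Srpk1, the kinase that readies them for import, by 0.83, 0.78 and 0.76 (SE 0.14, 0.14 and 0.16). Clk3, a nuclear kinase of SR proteins, fell by 2.36, 2.55 and 2.32 (SE 0.17, 0.17 and 0.19; limma adjusted p = 0.000414, 0.000203 and 0.00111), more than any member. Dyrk1a fell by 0.67, 0.71 and 0.41.

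Among 41 other spliceosome proteins, 11 rose and 6 fell in wild-type tumors, 12 rose and 5 fell in Dnmt3b-deficient tumors, and 12 rose and 8 fell before tumors. The rising shares of 26.8%, 29.3% and 29.3% were near those of the brighter genes (28.4%, 30.2% and 24.8%). The falling shares were 14.6%, 12.2% and 19.5%, beside 22.4%, 23.2% and 21.6% of the brighter genes. Of all probe sets 9.58%, 9.7% and 9.69% rose and 10.3%, 10.5% and 9.88% fell. Within the 41, the largest rises were those of Cwc22, which couples splicing to the exon junction complex (1.98, 2.13 and 2.16), and Ddx46, a helicase that acts on U2 (1.85, 1.99 and 1.97). Dhx8, which releases the finished mRNA, fell by 0.61, 0.87 and 0.76, and Syf2 by 0.75, 1.06 and 0.99. Of 19 hnRNP-like proteins with other names, 7 rose and 3 fell, 5 rose and 2 fell, and 6 rose and 2 fell. Their rising shares were 36.8%, 26.3% and 31.6% and their falling shares 15.8%, 10.5% and 10.5%, to be read beside the same shares of brighter genes and all probe sets. Syncrip, close kin of Hnrnpr, rose by 2.06, 2.13 and 2.10 (SE 0.29, 0.29 and 0.32), and Ptbp2, a neuronal splicing repressor, by 1.13, 1.03 and 1.04 (SE 0.25, 0.25 and 0.28). Ptbp1, its widely expressed relative, fell in wild-type tumors (−0.36, SE 0.10, limma adjusted p = 0.0481) and before tumors (−0.48, SE 0.11, 0.0248). In limma 0 genes of these 4 lists were called between the tumor genotypes or between the tumors and the pre-tumor stage. At an unadjusted p under 0.05 there were 0 to 3 genes per list between the genotypes and 2 to 4 between the stages. Of all 28939 tested probe sets, 1823 and 2730 had such a p.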

How the data were processed

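RNA was labelled and hybridised to Affymetrix whole-transcript arrays, 1 array for each of 11 samples, per the labels' protocols. The authors deposited log2 values. Partek and the RMA method appear in the submitters' processing notes, with order and versions not given in the sources used here. No value lies under 3.32, which is log2 of 10, and this floor holds 23.6% to 25.7% of the values on each array. Array medians were 4.55 to 4.62, and nothing was renormalized. Arrays have no read depth, so the number of arrays limits precision, and the labels call the samples of a group biological replicates.

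Of 35512 probe sets, 6573 without a gene and with the lowest IDs were left out as probable controls, which left 28939. Columns that matched no sample numbered 0. Symbols came from the platform annotation, and all 71 members matched RefSeq. For 9 members (Hnrnpf, Hnrnph2, Hnrnpk, Lsm5, Sf3b4, Snrpc, Snrpg, Srsf10 and Srsf3) the 20 neighbours by ID of the probe set used point to another chromosome than that of the gene, and such a probe set may hybridise RNA of a near-identical copy.

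limma 3.58.1 in R 4.3.3 fitted 1 mean per group over all 4 groups (lmFit and eBayes without trend, prior degrees of freedom 0.46 and residual 7), and was tested on simulated data. Every adjusted p is Benjamini-Hochberg over all tested probe sets. Named are, per family and comparison, up to 3 of the largest called rises and falls, a set of always-named genes, and up to 4 called genes per related list. Other members with a call or of note were named after their values were seen. Members and lists were chosen with earlier results of these data known. Alternatives covered scaling, floor, filter, variance trend, samples fitted, controls, the probe set per gene, a replicate block and each sample left out. The alternative that takes the probe set on the gene's own chromosome was added after seeing the data.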

Additional observations from a re-analysis of the deposited data

How the results depend on the processing

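The 0 calls between tumor genotypes and between lymphoma and pre-tumor stage held under all 21 alternatives. Against normal thymocytes, all 67 calls of named genes kept their direction under every alternative. Of these, 19 also stayed past the threshold throughout, and 48 lost it in at least 1. Over all members, 9 of 26 calls in wild-type tumors, 9 of 26 in Dnmt3b-deficient tumors and 3 of 23 before tumors (Lsm14b, Snrpg and Srsf4) held in every alternative. Leaving out 1 sample gave 9 to 29 changed members in wild-type tumors, 14 to 28 in Dnmt3b-deficient tumors and 7 to 27 before tumors. Fitting only the 2 groups compared gave 22 for wild-type tumors (18 of the 26 calls kept), 17 for Dnmt3b-deficient tumors (14 of 26 kept) and 5 before tumors (5 of 23 kept). With the replicate number as a block the counts were 12, 16 and 9. Deviations of samples with the same number correlated between −0.33 and 0.32. Within so few arrays deviations constrain one another, so these values cannot decide whether the numbers pair the samples. Each sample's number serves here only as a name.

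Reversals occurred only for uncalled genes. Quantile normalization turned Hnrnpk to −0.12, −0.021 and −0.060 in wild-type tumors, Dnmt3b-deficient tumors and pre-tumor thymocytes, Sf3b3 and Srsf3 to −0.046 and −0.0052 in wild-type tumors, Prpf8 and Snrpa to −0.032 and −0.042 in Dnmt3b-deficient tumors, and Srsf2 and Srsf3 to −0.10 and −0.10 before tumors. Median centring turned Srsf2 to 0.040 in wild-type tumors and Snrpb to 0.043 before tumors. With each sample left out in turn, the lowest and highest differences against normal were −0.019 and 0.17 for Hnrnpk and −0.068 and 0.050 for Srsf2 in wild-type tumors. They were −0.037 and 0.27 for Hnrnpll and −0.0042 and 0.15 for Prpf8 in Dnmt3b-deficient tumors. Before tumors they were −0.063 and 0.21 for Hnrnpk, −0.40 and 0.14 for Snrpa, −0.082 and 0.0016 for Snrpb, −0.19 and 0.22 for Srsf2, and −0.0098 and 0.16 for Srsf3. Between tumors and pre-tumor stage they were −0.96 and 0.13 for Lsm5, −0.89 and 0.080 for Lsm6, −0.89 and 0.19 for Sf3b6, −0.69 and 0.17 for Snrpb2, and −0.44 and 0.014 for Srsf11. The cause was not tested. Median centring gave 25 rises and 4 falls, 25 and 5, and 26 and 3. Median centring also brought Prpf39 and Prpf4 past the threshold in all 3 comparisons. Leaving out probe sets at the floor on all arrays did so for Prpf39. Among others, Hnrnpa2b1 and Lsm1 in Dnmt3b-deficient tumors (limma adjusted p = 0.0265 and 0.0446) and Hnrnph1 and Lsm7 before tumors (0.0318 and 0.0424) then passed too. With the dimmest probe sets left out, Lsm10 in wild-type tumors (0.0607) and Hnrnpl, Lsm10 and Sf3b2 before tumors (0.101, 0.0514 and 0.0662) lost their calls. No member was at the floor on any array, and signal against background was not tested.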
